A study of Mus musculus with 8 samples.

Results

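Receptors by which leukocytes sense chemoattractants were followed in the peripheral blood of restrained mice: the formyl peptide receptors Fpr1 and Fpr2, the complement C5a receptor C5ar1, the platelet-activating factor receptor Ptafr, the leukotriene B4 receptor Ltb4r1 and the chemerin receptor Cmklr1. They were found by their symbols in a table of 21878 gene symbols, and all 6 were among the 11718 genes with enough counts to test. Peripheral blood RNA was sequenced in 4 control and 4 stress samples. The mice were wild-type female C57BL/6 animals, given as 6-8 weeks old. The stress group was kept for 6 h in a ventilated tube without food or water, and the control group consisted of littermates left in their cage, also without food and water. Apart from a replicate number, the labels do not say how the samples of a group are related, so the p-values measure the spread between these samples.

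These receptors are G protein-coupled proteins of the cell surface that guide neutrophils and monocytes along gradients of bacterial peptides, complement fragments and lipid mediators. Ligand binding mainly activates Gi proteins, which start phosphoinositide 3-kinase and calcium signalling, migration, degranulation and the oxidative burst, until receptor kinases and arrestins turn the signal off. In blood, Fpr1, Fpr2, C5ar1 and Ltb4r1 are best known from neutrophils and monocytes, Ptafr is also found on other leukocytes, and Cmklr1 is known from monocyte-derived cells, plasmacytoid dendritic cells and NK cells.

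Fpr1 and Fpr2 are neighbours in the genome. In the GENCODE M21 annotation of the mouse build GRCm38, Fpr1 lies at chr17:17876471-17883940 on the minus strand and Fpr2 at chr17:17887824-17893952 on the plus strand, with start sites 3884 bases apart and pointing away from each other. The coding sequences of the pair were identical at 71.1% of aligned bases, against 57.6 to 63.4% for the other 14 pairs of the 6 receptors. The 250 bases before each start site, taken from RefSeq promoters of GRCm38.p6, are shown because the pair shares a locus and both genes rose in the stress group (Fpr1 window chr17:17883940-17884189, minus strand; Fpr2 window chr17:17887574-17887823, plus strand). Both run 5′ to 3′ in the direction of transcription, and capitals mark TTCCTC, the reverse complement of GAGGAA, which is the core of the box bound by the myeloid factor PU.1.
Fpr1: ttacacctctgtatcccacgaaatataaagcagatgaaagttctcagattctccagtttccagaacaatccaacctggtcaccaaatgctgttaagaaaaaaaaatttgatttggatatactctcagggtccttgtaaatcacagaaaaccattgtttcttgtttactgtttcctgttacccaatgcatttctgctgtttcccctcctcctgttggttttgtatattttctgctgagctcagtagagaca
Fpr2: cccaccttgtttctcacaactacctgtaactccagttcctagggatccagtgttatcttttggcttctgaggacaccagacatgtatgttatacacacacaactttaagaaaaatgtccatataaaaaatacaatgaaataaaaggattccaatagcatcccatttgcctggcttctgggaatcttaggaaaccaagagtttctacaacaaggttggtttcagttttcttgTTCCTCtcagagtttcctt

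The capitals of Fpr2 stand 19 to 14 bases before its start, and the Fpr1 window has no GAGGAA on either strand. This core was also present in the windows of Ptafr, Ltb4r1 and Cmklr1, so that 4 of the 6 receptors held it, while 23.3% of 32851 RefSeq promoters of the same length did. It was searched only after 3 longer motifs had no match in any of the 6 windows. These were GAGGAAGT for PU.1, present in 2.44% of promoters, TTGCNNAA for C/EBP, present in 9.56%, and TGANTCA for AP-1, present in 6.75%, each read on both strands. GAGGAA is contained in GAGGAAGT. A match here describes letters in the window and does not show binding. RefSeq and GENCODE start sites can differ. The Cmklr1 window (chr5:113643604-113643853) lies inside the GENCODE span of its gene, and the C5ar1 window (chr7:16259339-16259588) lies mostly inside that of C5ar1.

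The other 4 genes stand apart. C5ar1 is at chr7:16246743-16259540 on the minus strand, 2588 bases from its relative C5ar2. Ptafr is at chr4:132564067-132582683 on the plus strand, and Cmklr1 at chr5:113612354-113650426 on the minus strand. Ltb4r1 is at chr14:55765962-55768494 on the plus strand and begins 823 bases after the end of Ltb4r2, the low-affinity leukotriene B4 receptor. Of the 50-base words in the exons of Fpr2, 31.5% also occur in other genes, mostly in the pseudogene Gm5966, and its exons overlap those of Fpr3 on the same strand, so the Fpr2 count is uncertain. The share was 1.64% for Ptafr, 0.329% for Cmklr1, 0.0784% for Fpr1 and 0 for C5ar1 and Ltb4r1.

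The libraries held 31471145 to 39014775 counts in the control group and 25978683 to 29655725 in the stress group. Haemoglobin genes, which mark red cells, took 51.9 to 63.8% of a control library and 61.2 to 75.5% of a stress library, which left 11412556 to 18774818 and 6355715 to 11009882 counts for all other genes. Stress 3 had the fewest. Levels are given below as CPM, a gene's count relative to its library size, with library sizes scaled by TMM, a method that takes most genes as equal between samples. On this scale 1 CPM stood for 31.7 to 69.2 counts in control samples and for 13.2 to 31.2 counts in stress samples, so the stress values rest on fewer counts. Over all tested genes the median log2 fold change came to -0.03 with TMM and to -0.82 with total counts alone, and a change on one scale differs from the other by about that shift.

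All 6 receptors had higher mean CPM in the stress group, and 5 of them passed the thresholds for a call, a log2 fold change beyond 1 in either direction with an adjusted p under 0.01 from edgeR's quasi-likelihood test, adjusted by Benjamini-Hochberg over all tested genes. These were Fpr1, Fpr2, C5ar1, Ptafr and Ltb4r1, and their increases lay between 2.28- and 2.90-fold. Among all tested genes 1.69% were called higher and 0.0171% were called lower. In the same 5 receptors every stress sample stood above every control sample, which held for 11.1% of tested genes. The median log2 fold change of the 6 receptors was 1.30. In bulk blood, more cells of a type and more RNA per cell cannot be told apart.

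**Figure D1:**
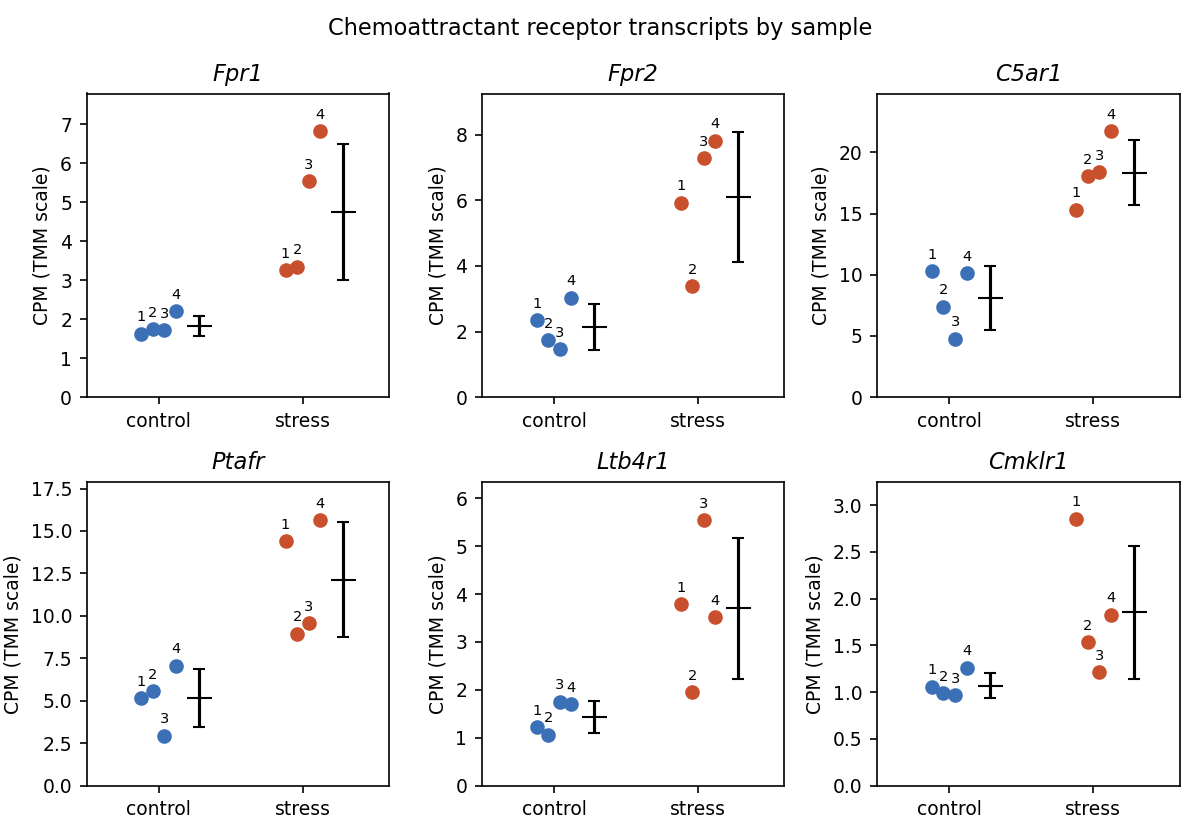
CPM on the TMM scale (vertical axes from 0) of the 6 receptors in the 4 control (blue) and 4 stress (red) samples, numbered by replicate, with the group mean and SD as bars. The groups do not overlap for Fpr1, Fpr2, C5ar1, Ptafr and Ltb4r1, while for Cmklr1 stress 3 (1.21 CPM) lies below control 4 (1.26 CPM).

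Fpr1 binds N-formylated peptides released by bacteria and by mitochondria with high affinity. Its level was 1.63, 1.74, 1.72 and 2.21 CPM in control 1 to 4, and 3.26, 3.34, 5.54 and 6.82 CPM in stress 1 to 4. The control samples were close together, whereas stress 3 and stress 4 stood well above stress 1 and stress 2. Fpr1 thus rose from 1.82 ± 0.260 to 4.74 ± 1.74 CPM (SD, n = 4 each), a log2 fold change of 1.39 ± 0.25 (SE; edgeR, adjusted p = 0.0034). The counts behind these values were 60, 90, 119 and 70 in the control group and 73, 72, 73 and 213 in the stress group, and they overlap before scaling. Fpr1 lost the call without control 1, control 2, control 3 or stress 4 (edgeR, adjusted p from 0.0106 to 0.0173).

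Fpr2 recognises a broader set of ligands, including formyl peptides, serum amyloid A and annexin A1. It was measured at 2.34, 1.74, 1.46 and 3.03 CPM in the control samples. The stress samples held 5.93, 3.39, 7.29 and 7.81 CPM, with stress 2 just above the highest control sample. Fpr2 had the largest fold change of the 6 receptors and rose from 2.14 ± 0.695 to 6.10 ± 1.98 CPM, a log2 fold change of 1.54 ± 0.28 (edgeR, adjusted p = 0.00363). The counts ran from 86 to 101 in the control and from 73 to 244 in the stress samples. Fpr2 lost the call without control 2, control 3, stress 1, stress 3 or stress 4 (edgeR, adjusted p from 0.0110 to 0.0184). The ratio of Fpr2 to Fpr1 counts within a sample, which does not depend on library scaling, differed by 0.18 ± 0.26 on the log2 scale between stress and control (SE; two-sided exact permutation test, p = 0.543). No difference between the pair was therefore detectable with 4 samples a group, where 0.0286 is the smallest p this test can give.

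C5ar1 binds C5a, the anaphylatoxin split from complement C5. It reached 10.3, 7.39, 4.76 and 10.1 CPM in the control group and 15.3, 18.0, 18.4 and 21.7 CPM in the stress group. Control 3 was the lowest sample, and the lowest stress sample stood clearly above the highest control sample. C5ar1 rose from 8.14 ± 2.61 to 18.4 ± 2.62 CPM, a log2 fold change of 1.19 ± 0.22 (edgeR, adjusted p = 0.00455). The call rested in part on control 3, without which the log2 fold change was 0.99 and so fell just short of the fold threshold (edgeR, adjusted p = 0.00414). It also lost the call without control 2, stress 2, stress 3 or stress 4, with adjusted p between 0.0113 and 0.0274 (edgeR). Its counts were 321 to 382 in the control and 242 to 678 in the stress samples.

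Ptafr responds to platelet-activating factor, a phospholipid mediator made by leukocytes, platelets and endothelium. Control samples held 5.14, 5.55, 2.95 and 7.07 CPM. Stress samples held 14.4, 8.95, 9.56 and 15.6 CPM, so that stress 1 and stress 4 were high and stress 2 and stress 3 intermediate. Ptafr rose from 5.18 ± 1.70 to 12.1 ± 3.37 CPM, a log2 fold change of 1.26 ± 0.26 (edgeR, adjusted p = 0.00845). These values rest on 189 to 287 counts in the control and 126 to 488 in the stress samples. With 1 sample left out, Ptafr kept the call only without control 4 (edgeR, adjusted p = 0.00391), against 0.0102 to 0.0236 in the other such fits. It also lost the call with no filter on low counts and with at least 10 counts in every sample (edgeR, adjusted p = 0.0166 and 0.0103).

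Ltb4r1 is the high-affinity receptor for leukotriene B4. It was found at 1.22, 1.06, 1.75 and 1.70 CPM in the control samples and at 3.79, 1.95, 5.54 and 3.52 CPM in the stress samples. Stress 2 came close to the control group, while stress 3 was the highest sample. Ltb4r1 rose from 1.43 ± 0.343 to 3.70 ± 1.47 CPM, a log2 fold change of 1.34 ± 0.29 (edgeR, adjusted p = 0.0096). Of the 5 adjusted p-values of called receptors this was the nearest to 0.01. Its counts were low, from 42 in stress 2 to 121 in control 3. With 1 sample left out, Ltb4r1 kept the call only without stress 2 (edgeR, adjusted p = 0.00405), against 0.0134 to 0.0408 in the other such fits. It also lost the call by limma-voom (adjusted p = 0.0119), and in edgeR with upper quartile scaling or at least 10 counts in every sample (adjusted p = 0.0102 in both).

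Cmklr1 binds chemerin, a plasma protein cut into an active form by proteases at sites of inflammation. It gave 1.06, 0.99, 0.97 and 1.26 CPM in the control group and 2.85, 1.53, 1.21 and 1.82 CPM in the stress group. The groups overlapped through stress 3, which rests on 16 counts (exact Poisson 95% interval 9.15 to 26.0, counting error only). Cmklr1 averaged 1.07 ± 0.134 CPM in the control group and 1.86 ± 0.711 CPM in the stress group, and its log2 fold change of 0.82 ± 0.29 was not called (edgeR, adjusted p = 0.0733). Whether its change differed from that of the other receptors was not tested.

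The calls depended on library scaling and on single libraries. With total counts alone as the library size, the log2 fold changes were 0.65 for Fpr1, 0.83 for Fpr2, 0.50 for C5ar1, 0.60 for Ptafr, 0.51 for Ltb4r1 and 0.08 for Cmklr1, and none was called (edgeR, adjusted p = 0.0493 for Fpr2 and 0.122 to 0.878 for the others). All 6 stayed above the control group on average, their median being 0.55 against -0.82 for all genes, but in 0 of the 6 did every stress sample exceed every control sample. On that scale 0.119% of genes were called higher and 6.21% lower. The number of receptors called also moved with single libraries. It fell to 0 without control 2, without control 3 or without stress 4, to 1 without stress 3, to 2 without control 1 or without stress 1, to 3 without stress 2 and to 4 without control 4. Over all genes 198 were called higher with every sample kept, and 76, 95 and 175 without control 2, control 3 and stress 4. The number was 176 without stress 3, 226 without control 1, 150 without stress 1, 199 without stress 2 and 340 without control 4. Between 11491 and 11701 genes were tested in these fits. In each of these 8 fits the 5 called receptors kept an adjusted p below 0.05.

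**Figure D2:**
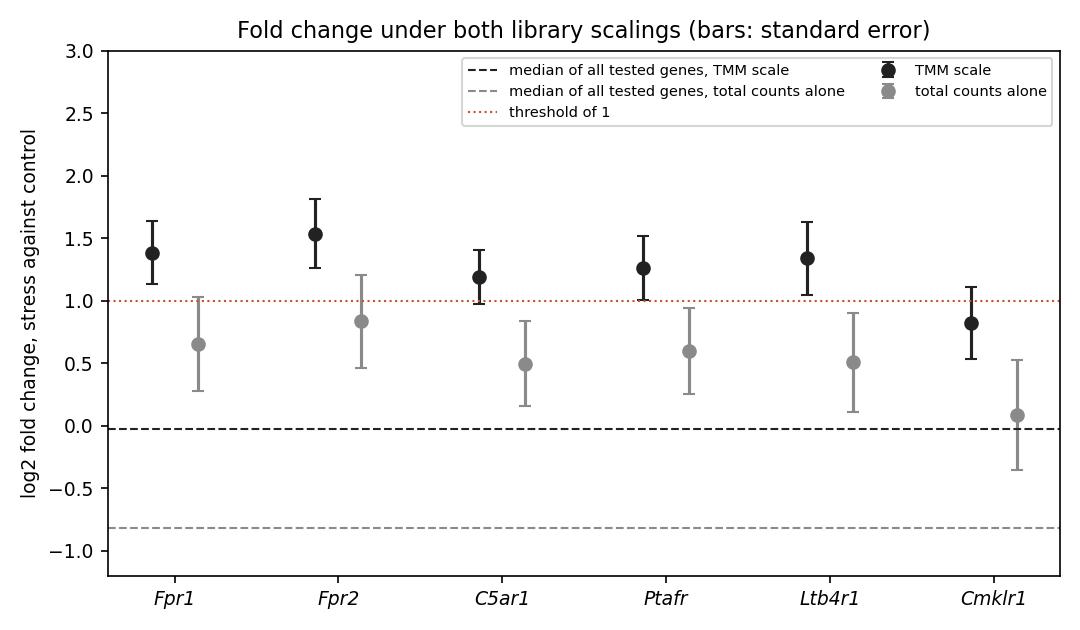
Log2 fold change of stress against control (vertical axis) for each receptor, with its standard error as a bar, on the TMM scale (black) and with total counts alone (grey). The dashed lines mark the median of all tested genes on each scale, -0.03 and -0.82, and every receptor lies above the line of its own scale.

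Many markers of neutrophils, classical monocytes and platelets were also called higher, at shares that depended on the scaling. Among all tested genes the share called higher was 1.69% on the TMM scale and 0.119% with total counts alone. Of 18 neutrophil markers such as S100a8, Ly6g and Cxcr2, 18 had a positive log2 fold change and 12 were called higher, with a median of 1.47. Their summed level was 216 to 422 CPM in control samples and 674 to 986 CPM in stress samples. Of 10 classical monocyte markers such as Ccr2, Ly6c2 and Vcan, 9 were positive and 7 were called, with a median of 1.51 and summed levels of 354 to 476 and 719 to 1249 CPM. Ly6c2 was not among the called markers (log2 fold change 0.83 ± 0.23, edgeR, adjusted p = 0.0341). Lyz2 gave most of the counts of this list, at 50342 over the control samples against 8779 for F13a1, the next highest. Of 8 platelet markers 8 were positive and 3 were called, with a median of 0.99 and summed levels of 1346 to 2025 and 3103 to 3739 CPM. On the total-count scale 3 of the neutrophil, 3 of the classical monocyte and 0 of the platelet markers were called higher. The part of these cells in the receptor values is described only through the ratios below and was not tested otherwise. Flow cytometry, which counts cells and not RNA, was used in the paper that reported these data. It found more neutrophils but fewer monocytes, T cells, B cells and NK cells in blood after acute stress.

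Lists for other cell types gave 0 calls in either direction (edgeR). At an unadjusted p below 0.05, 3 non-classical monocyte, 1 plasmacytoid dendritic cell, 1 NK cell and 6 B cell markers were lower, 1 eosinophil marker was lower and 1 higher, and 0 T cell markers passed. DESeq2 called 1 non-classical monocyte marker lower and limma-voom called 0 genes of these lists. With total counts alone, where the median of all genes was itself negative, edgeR called 3 non-classical monocyte, 1 eosinophil, 1 plasmacytoid dendritic cell, 1 NK cell, 8 B cell and 0 T cell markers lower. The median log2 fold change was -0.28 for 8 non-classical monocyte markers, -0.13 for 4 tested eosinophil markers, -0.30 for 4 tested plasmacytoid dendritic cell markers, -0.06 for 8 NK cell markers, -0.49 for 8 B cell markers and -0.06 for 8 T cell markers. Of the 8 B cell markers 8 were negative, 3 of them with an adjusted p below 0.01, as had 1 eosinophil marker (edgeR). With total counts alone the medians were 0.73 for neutrophil, 0.75 for classical monocyte and 0.22 for platelet markers, against 0.55 for the receptors.

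**Figure D3:**
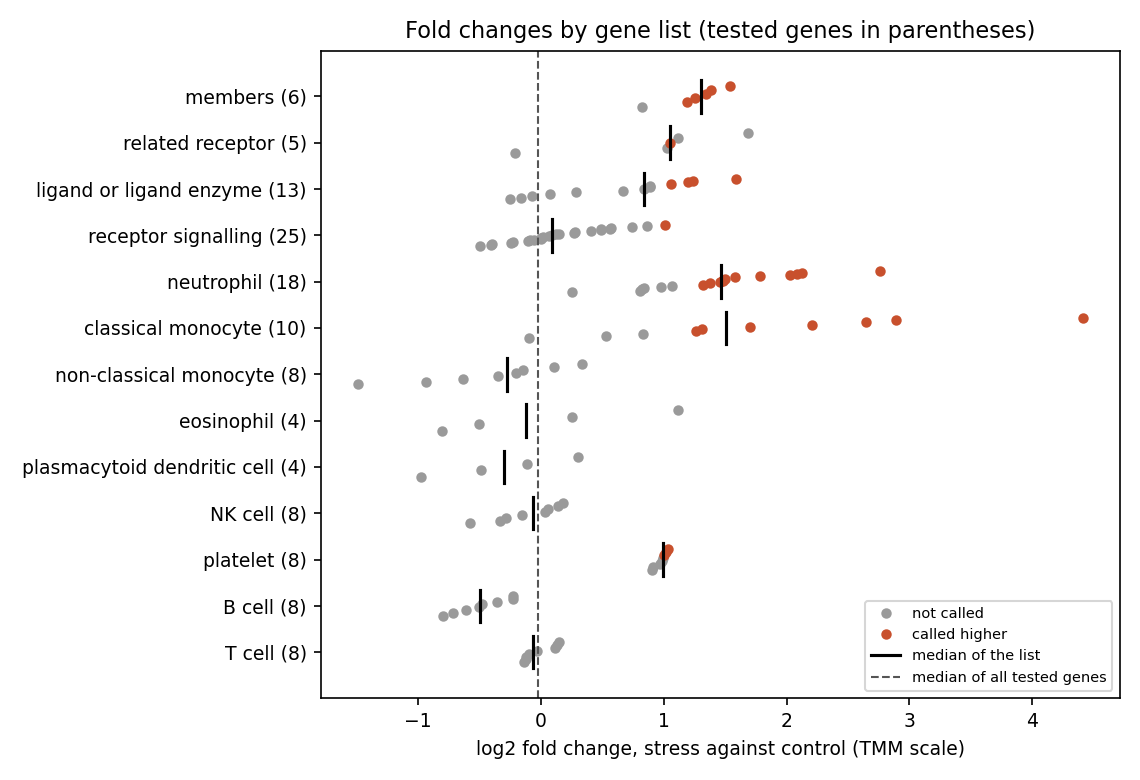
Log2 fold change of stress against control on the TMM scale (horizontal axis) for each tested gene of the receptor, pathway and cell type lists, with genes called higher in red, the list median as a black line and the median of all tested genes (-0.03) as a dashed line. Receptors (median 1.30), neutrophil markers (1.47) and classical monocyte markers (1.51) lie to the right, and B cell markers (-0.49) to the left.

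Within a library, the ratio of a receptor's count to the summed counts of a marker list does not depend on scaling. Relative to the neutrophil markers, the log2 ratio differed between stress and control by 0.06 ± 0.26 (SE) for Fpr1, 0.24 ± 0.23 for Fpr2, -0.03 ± 0.11 for C5ar1, -0.000114 ± 0.17 for Ptafr and 0.05 ± 0.43 for Ltb4r1. The groups overlapped in each case, and two-sided exact permutation tests gave p from 0.314 to 1.0. The standard error was smallest for C5ar1, whose log2 ratio lay between -5.50 and -5.17 in control samples and between -5.55 and -5.22 in stress samples. For Fpr2, stress 2 lay below every control sample and the other stress samples above them, and without stress 2 the difference was 0.44. Removing stress 2 set the groups apart, and the exact permutation test then gave its smallest possible p (p = 0.0286). That value is among many fits with 1 sample left out and is not adjusted for their number, so no conclusion is drawn from it. Relative to the classical monocyte markers, the same 5 receptors differed by -0.07 to 0.20 (exact permutation tests, p from 0.486 to 0.914). These values depended on how the markers were summarised: with the mean of log2 marker counts in place of the log2 sum, the 5 receptors differed by -0.46 to -0.19 against the monocyte markers (exact permutation tests, p from 0.314 to 0.6) and by -0.22 to 0.05 against the neutrophil markers (the smallest p was 0.257, exact permutation test).

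Cmklr1 had a negative difference against both lists. Its log2 ratio to the classical monocyte markers was -8.72, -8.49, -8.75 and -8.56 in control 1 to 4 and -8.77, -8.88, -9.83 and -9.30 in stress 1 to 4. Every stress sample stood below every control sample, although stress 1 lay only just below control 3. The difference was -0.57 ± 0.25 (exact permutation test, p = 0.0286, the smallest possible), in 1 of 12 such ratios and without adjustment for their number. It was -0.35 without stress 3, and -0.54 with p = 0.0571 when Lyz2, the most abundant marker, was left out (exact permutation test). The test also missed its smallest possible p with the mean of log2 marker counts, at -0.95, and without any 1 control sample. Relative to the neutrophil markers the difference was -0.52 ± 0.32 and the groups overlapped (exact permutation test, p = 0.171). Without stress 1, the only stress sample within the control range, the difference was -0.79. Removing stress 1 set the groups apart, and the exact permutation test then gave its smallest possible p (p = 0.0286). That p is not adjusted for the number of such fits.

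**Figure D4:**
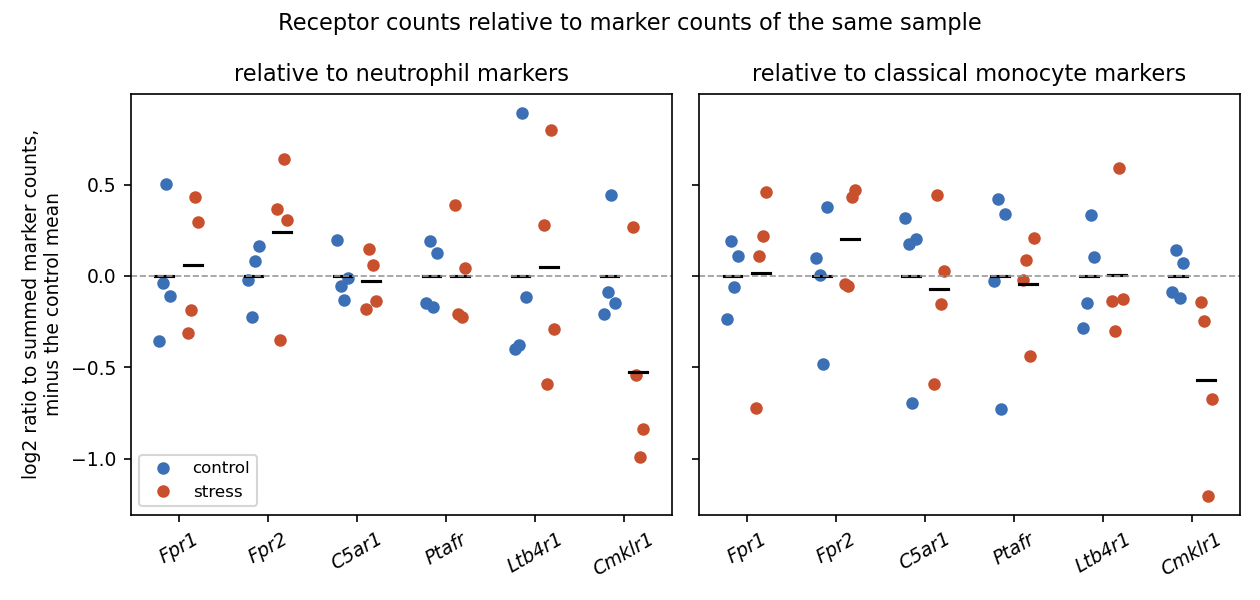
Log2 ratio of each receptor's count to the summed counts of 18 neutrophil (left) or 10 classical monocyte markers (right) in each control (blue) and stress (red) sample, shifted so that the control mean is 0 (vertical axis), with group means as lines. The stress samples scatter around 0 for 5 receptors, while for Cmklr1 against the monocyte markers all 4 stress samples lie below the 4 control samples.

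Levels of different genes can be compared only per length. Per kilobase of exon, C5ar1 was the most abundant of the 6 receptors, with 3.17 ± 1.02 CPM per kilobase under control conditions and 7.14 ± 1.02 after stress (SD, n = 4). In the control group Fpr2 (1.65 ± 0.536), Ptafr (1.42 ± 0.468), Fpr1 (1.38 ± 0.196) and Ltb4r1 (1.03 ± 0.246 CPM per kilobase) followed, and the ranges of neighbours in this order overlapped. In the stress group the order was Fpr2 (4.71 ± 1.53), Fpr1 (3.58 ± 1.32), Ptafr (3.34 ± 0.927) and Ltb4r1 (2.65 ± 1.06 CPM per kilobase), again with overlapping neighbours. Cmklr1 was the lowest in both groups, at 0.314 ± 0.0394 and 0.545 ± 0.209 CPM per kilobase, and its range did not meet that of Ltb4r1 in either. The orders were the same when the longest coding transcript gave the length.

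**Figure D5:**
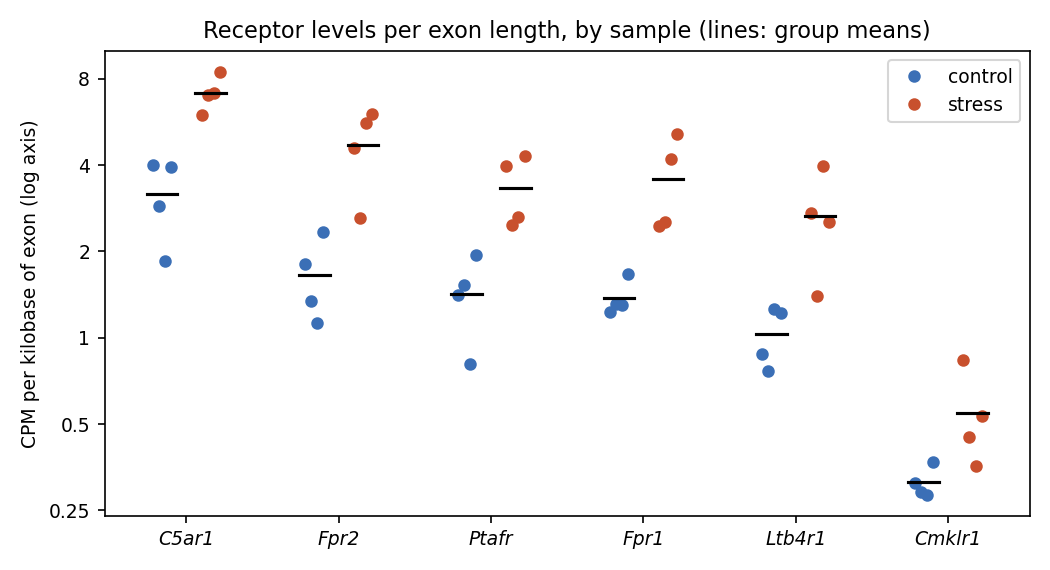
CPM per kilobase of exon (vertical log axis) of the 6 receptors in each control (blue) and stress (red) sample, ordered by control mean, with group means as lines. C5ar1 is highest and Cmklr1 lowest in both groups, and the 4 receptors between them overlap.

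Other receptors for the same ligands or of the same families were mostly scarce. Of 13 listed relatives with a row in the table, 5 had enough counts to test, 4 of these had a positive log2 fold change and 1 was called higher, with a median of 1.05. The call was Cysltr2, a receptor for cysteinyl leukotrienes, at 6.96, 4.01, 4.64 and 6.69 CPM in the control and 10.2, 10.7, 11.8 and 12.9 CPM in the stress samples. The groups did not overlap, and the log2 fold change was 1.05 ± 0.18 (edgeR, adjusted p = 0.0025). It was above the fold threshold by little and was not called without control 2, control 3 or stress 4, where it was 0.91, 0.97 and 0.98.

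C5ar2, the second C5a receptor, which signals without G proteins, held 3.45, 2.46, 1.66 and 2.87 CPM in the control and 4.33, 4.45, 3.34 and 9.77 CPM in the stress samples. Stress 4 stood far above the rest, the groups overlapped through stress 3, and the log2 fold change of 1.12 ± 0.33 was not called (edgeR, adjusted p = 0.0419). The log2 ratio of C5ar2 to C5ar1 counts differed by -0.24 ± 0.28 (exact permutation test, p = 0.4). Without stress 4, the only stress sample above the control samples, it differed by -0.47. Removing stress 4 set the groups apart, and the exact permutation test then gave its smallest possible p (p = 0.0286). That p is not adjusted for the number of such fits. Ccrl2, which binds chemerin without signalling, had a log2 fold change of 1.03 ± 0.42 (edgeR, adjusted p = 0.115). Cysltr1, the other cysteinyl leukotriene receptor, gave 1.69 ± 0.71 (edgeR, adjusted p = 0.126) on 0 to 46 counts per sample. C3ar1, the receptor for the complement fragment C3a, was the exception in direction at -0.21 ± 0.42 (edgeR, adjusted p = 0.769), with 8 to 74 counts per sample.

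The remaining relatives fell below the filter of 10 counts in 4 samples. Ltb4r2 had 1 to 16 counts per sample, and its log2 ratio to Ltb4r1 differed by -0.79 ± 0.80 (exact permutation test, p = 0.429). The histamine receptor Hrh4 had 2 to 24 counts, the prostaglandin D2 receptor Ptgdr2 0 to 6 and the chemerin receptor Gpr1 0 to 3. Fpr3 had 1 count in all, in stress 1, and Fpr-rs3, Fpr-rs4 and Fpr-rs6, other members of the mouse formyl peptide receptor cluster, had 0 counts in all 8 samples. Fpr1 and Fpr2 were thus the formyl peptide receptor genes detected at more than 1 count among the 6 with a row. The Fpr3 count is uncertain too, since its exons overlap those of Fpr2 on the same strand.

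Genes that make or remove the ligands gave mostly positive values. Of 19 listed, 13 were tested, 10 had a positive and 3 a negative log2 fold change, 4 were called higher and 0 lower, with a median of 0.84. Of the negative genes 1 had an unadjusted p below 0.05 (edgeR), and DESeq2 and limma-voom called 0 lower. Without the fold threshold 7 were higher at an adjusted p below 0.01, against 4.59% of all tested genes. The 3 called genes with the smallest p act on lipid mediators or on Fpr2. Pla2g7, the plasma platelet-activating factor acetylhydrolase, held 18.6, 14.9, 11.7 and 19.2 CPM in the control and 35.5, 32.3, 35.7 and 43.8 CPM in the stress samples. It rose by a log2 fold change of 1.20 ± 0.15 (edgeR, adjusted p = 0.0009), and every stress sample stood far above the control group.

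Alox5ap, the partner of 5-lipoxygenase in leukotriene synthesis, held 70.3, 53.9, 52.3 and 76.3 CPM in the control samples. The stress samples held 117, 129, 172 and 110 CPM, and the log2 fold change was 1.06 ± 0.17 (edgeR, adjusted p = 0.0019). It was under the fold threshold without control 2, control 3 or stress 3, at 0.99, 0.98 and 0.92. Anxa1 encodes annexin A1, a ligand of Fpr2 whose synthesis glucocorticoids are known to raise. It held 9.48, 9.46, 8.63 and 15.2 CPM in the control and 19.2, 22.5, 29.3 and 29.7 CPM in the stress samples, a log2 fold change of 1.24 ± 0.19 (edgeR, adjusted p = 0.0021; 0.0109 without stress 3).

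The remaining call, named because it completes the count, was C3, the source of C3a, with 7.29 ± 1.09 CPM in the control and 21.7 ± 9.37 CPM in the stress group (log2 fold change 1.59 ± 0.26, edgeR, adjusted p = 0.0030). It lost the call without control 2, stress 3 or stress 4 (edgeR, adjusted p = 0.0105, 0.0231 and 0.0116), and also by limma-voom (adjusted p = 0.0116) and with no filter on low counts (edgeR, adjusted p = 0.0199). The 3 negative genes were not called. They were Lpcat1, which can make platelet-activating factor (-0.25 ± 0.10; edgeR, adjusted p = 0.118), the acetylhydrolase subunit Pafah1b3 (-0.16 ± 0.19; adjusted p = 0.593) and Lta4h, the enzyme that completes leukotriene B4 (-0.07 ± 0.09; adjusted p = 0.644). In Lpcat1 every stress sample was below every control sample, as in 9.88% of tested genes. In 9 of the 13 tested genes of the list every stress sample was above every control sample, against 11.1% of all tested genes. Rarres2, the chemerin gene, had 0 to 2 counts per sample, Hc, which encodes C5, had 2 counts in stress 4 and 0 elsewhere, and Mme had 0 in every sample. With total counts alone the median of the list was 0.10 and none was called.

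Signalling genes behind the receptors centred near the median of all genes. All 25 listed were tested, 16 had a positive and 9 a negative log2 fold change, and the median was 0.09, but -0.71 with total counts alone. Of these, 1 was called higher and 0 lower, with 2 negative genes at an unadjusted p below 0.05 (edgeR) and 0 called lower by DESeq2 or limma-voom. On the total-count scale 0 were called higher and 1, Dock2, was called lower. The call was Pik3r6, a regulatory subunit of phosphoinositide 3-kinase gamma, at 1.52, 1.41, 1.42 and 2.11 CPM in the control and 3.75, 2.51, 2.96 and 3.65 CPM in the stress samples (log2 fold change 1.01 ± 0.22; edgeR, adjusted p = 0.0097). The groups did not overlap, but the value lay at both thresholds and lost the call in 7 of the 8 fits without 1 sample, the exception being control 4.

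The other named positive genes were not called. Rgs2, a regulator of G protein signalling, had a log2 fold change of 0.74 ± 0.11 (edgeR, adjusted p = 0.0013), which was -0.01 with total counts alone, and Rgs18, a relative known from platelets, had 0.86 ± 0.17 (edgeR, adjusted p = 0.0055). The lowest p among negative genes belonged to Plcb2, a phospholipase C that leukocytes use downstream of these receptors (-0.41 ± 0.12; edgeR, adjusted p = 0.0436). The exchange factor Dock2 gave -0.40 ± 0.13 (edgeR, adjusted p = 0.0544), which was -1.16 with total counts alone (edgeR, adjusted p = 0.00716), and the receptor kinase Grk6 gave -0.23 ± 0.11 (edgeR, adjusted p = 0.167). In these 3 of the 25 signalling genes every stress sample was below every control sample, a share near the 9.88% of all tested genes. In 8 of the 25 every stress sample was above every control sample, against 11.1% of all tested genes. Without the fold threshold 3 of the 25 were higher at an adjusted p below 0.01 (edgeR), against 4.59% of all tested genes. The annotation places exons of other genes on the opposite strand of Alox5ap, Pla2g7 and Dock2 and on the same strand of C5ar2, and since the strand setting of the counting is not given in the sources used here, reads of such neighbours cannot be told apart.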

How the data were processed

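Blood RNA-seq libraries of 4 control and 4 stress samples were used. The values the authors deposited are raw counts of reads for each gene symbol, with no normalization. HISAT2, featureCounts and mm10 are named in the submitters' processing notes, while the annotation, strand setting and filters are not given in the sources used here. Members were matched by symbol. The members and lists were chosen with earlier results of these data known.

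Genes that reached 10 counts in 4 or more samples were fitted in R 4.3.3 with edgeR 4.0.16 (TMM, robust quasi-likelihood test, stress against control, Benjamini-Hochberg adjustment over 11718 genes). A call needed a log2 fold change beyond 1 in either direction with an adjusted p under 0.01. On simulated counts for this comparison, 173 of 197 genes that were shifted by 1.5 on the log2 scale were recovered among 11571 tested genes, with 0 false calls. The shifts were upward and downward alike and the TMM library sizes were used, so the simulation does not test the scaling. The shift was also larger than the log2 fold changes of Fpr1, C5ar1, Ptafr and Ltb4r1. Depth and the counts behind 1 CPM stand in the text, and counting intervals cover counting error only.

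Log2 ratios of counts (0.5 added to the counts of receptor pairs) were compared by two-sided exact permutation tests over 70 assignments. Markers were summed per list, and 8 haemoglobin genes were summed as a red cell share. Named were the 6 members, every tested related receptor, up to 3 genes with the smallest p in each direction of the ligand and signalling lists, and the 2 genes closest in pattern to each member. Marker lists are given by counts. Alternatives were DESeq2 1.42.0, limma-voom (limma 3.58.1), other library scalings, count filters and thresholds, a fit with the replicate number as a block, each sample left out, and other marker summaries and gene lengths.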

Additional observations from a re-analysis of the deposited data

Results flagged for a closer look

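Among 72 groups of 4 samples checked for a single sample far from the others, 2 passed Dixon's 95% criterion, and chance alone passes about 1 in 20 groups. Both were control 4, in genes around the receptors. Anxa1 was at 15.2 CPM in control 4 against 8.63 to 9.48 CPM in the other control samples, and Pik3r6 was at 2.11 CPM against 1.41 to 1.52 CPM. In both genes control 4 remained below the lowest stress sample. The receptors themselves had no such sample.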

How the results depend on the processing

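The 6 receptors were higher in the stress group under every scaling, test, filter and left-out sample run. The number called was 5 in the reported fit, 0 with total counts alone, 3 with at least 10 counts in every sample, 4 or 5 under the other alternatives, and 0 to 4 with 1 sample left out. Related receptors went from 1 to 0 with total counts alone, to 2 at an adjusted p below 0.05 and to 0 to 1 with 1 sample left out, ligand genes from 4 to 0 with total counts alone, to 3 with limma-voom or no filter and to 1 to 5 with 1 sample left out, and signalling genes from 1 to 0 with total counts alone, upper quartile or the replicate block and to 0 to 1. With total counts alone Rgs2 was at -0.0058 and Bag3 at -0.071. Over all genes the reported fit called 198 higher and 2 lower, or 99.0% higher, against 14 and 728, or 1.89% higher, with total counts alone, 76 higher without control 2, 95 without control 3, 340 without control 4, and 307 higher and 12 lower with DESeq2.

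Samples with the same replicate number showed little common deviation (correlations -0.160 to 0.0621). Number 1 was its own best match between the groups in both directions, and numbers 2, 3 and 4 were in neither. With so few samples this check cannot exclude that the numbers pair them. The replicate block called 189 higher and 1 lower and the same 5 receptors.

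Ratios near 0 changed sign. Against neutrophil markers Fpr1 was at -0.13 with the mean of log2 marker counts and -0.12 without Csf3r, the most abundant marker, and Ltb4r1 at -0.14 and -0.13. Against monocyte markers with the mean of log2 counts, Fpr1 was at -0.37, Fpr2 at -0.19 and Ltb4r1 at -0.38, while C5ar1 moved from -0.07 to -0.46 and Ptafr from -0.04 to -0.43. With that mean against neutrophil markers C5ar1 was at -0.22, Ptafr at -0.19 and Fpr2 at 0.05. Cmklr1 missed the threshold at -0.95 with that mean and at -0.54 without Lyz2, and without any 1 control sample. With 1 sample left out the neutrophil ratios ranged from -0.067 to 0.22 for Fpr1, 0.11 to 0.44 for Fpr2, -0.085 to 0.039 for C5ar1, -0.13 to 0.075 for Ptafr, -0.20 to 0.35 for Ltb4r1 and -0.79 to -0.37 for Cmklr1. The monocyte ratios ranged from -0.13 to 0.26, 0.04 to 0.33, -0.30 to 0.11, -0.29 to 0.10, -0.19 to 0.12 and -0.71 to -0.35 in the same order. The C5ar2 to C5ar1 ratio ranged from -0.47 to -0.040. The causes were not tested. Cmklr1 and Ltb4r1 rest on 16 to 121 counts per sample.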

Other observations

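The genes whose pattern over the 8 samples was nearest to each receptor were found among 10304 genes with a mean of at least 1 CPM, by the root-mean-square difference of mean-centred log2 CPM. For Fpr1 these were Ifitm1, an interferon-induced membrane protein, and Pde7b, a cyclic AMP phosphodiesterase, at 0.196 and 0.201. For Fpr2 they were Hp, which encodes haptoglobin, and Ifitm2, a relative of Ifitm1, at 0.188 and 0.204. Hp rose from 20.4 ± 5.15 to 61.3 ± 18.2 CPM (SD, n = 4; log2 fold change 1.59 ± 0.24, edgeR, adjusted p = 0.0019). Ifitm1 rose from 4.36 ± 0.694 to 13.1 ± 3.40 CPM (1.59 ± 0.18, edgeR, adjusted p = 0.00077).

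C5ar1 was nearest to Gcnt2, a glycosyltransferase gene, and to Tnfsf14, the cytokine LIGHT, at 0.143 and 0.144. Tnfsf14 rose from 6.37 ± 1.42 to 14.4 ± 1.27 CPM (log2 fold change 1.18 ± 0.16, edgeR, adjusted p = 0.0010). Ptafr was nearest to Sgms2, a sphingomyelin synthase, at 0.112, the smallest of these differences, and to Tnfaip2 at 0.150. Neither of the latter was called, with log2 fold changes of 1.24 ± 0.31 and 1.04 ± 0.26 (edgeR, adjusted p = 0.0218 and 0.0212).

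For Ltb4r1 the nearest genes, Tmem176b and the lysozyme gene Lyz2, were farther away, at 0.263 and 0.266. Lyz2 is among the classical monocyte markers and rose from 273 ± 38.0 to 679 ± 141 CPM (log2 fold change 1.32 ± 0.20, edgeR, adjusted p = 0.0013). Cmklr1 was nearest to Adcy9, an adenylate cyclase, and Bag3, a co-chaperone, at 0.140 and 0.159. Their log2 fold changes were 0.84 ± 0.21 and 0.69 ± 0.20, and neither was called (edgeR, adjusted p = 0.0197 and 0.0358). With total counts alone that of Bag3 was negative, at -0.07. All these patterns hold the difference between the groups as well as that between samples.

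The summed counts of the 6 receptors were 797, 955, 941 and 805 in control 1 to 4 and 1021, 802, 626 and 1790 in stress 1 to 4. Stress 4 had the most by a wide margin. Cmklr1 made up 4.89, 5.34, 7.12 and 4.97% of them in the control and 6.27, 4.11, 2.56 and 3.18% in the stress samples, so that stress 2, stress 3 and stress 4 were below every control sample and stress 1 was within the control range.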
